A study of Mus musculus with 21 samples.

Results

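Neuronal immediate early genes were followed in whole-brain RNA from 21 SAMP8 mice. The group held 10 genes, Fos, Fosb, Junb, Egr1, Egr2, Egr3, Egr4, Arc, Npas4 and Nr4a1, chosen by name from the 16318 genes of the deposited table, and all 10 were found and passed the low-count filter. SAMP8 is an inbred mouse strain with accelerated senescence, and every mouse of the comparison was of this strain. From 4 to 6 months of age, 9 mice (3 female and 6 male) were injected subcutaneously every other day for 8 weeks with 1 mg/kg of HsTX1[R14A], and 12 mice (6 female and 6 male) with phosphate-buffered saline (PBS) on the same schedule. HsTX1[R14A] is a peptide blocker of Kv1.3, a potassium channel of microglia and lymphocytes. The paper states that Kv1.3 is also expressed in some neurons, in other glia and in neural progenitor cells. The comparison asks how the dosing changed the brain transcriptome, and it has no uninjected mice and no strain with normal aging. All mice had gone through behavioral tests before they were perfused under anesthesia, and the time from the last test or injection to perfusion is not given in the sources used here.

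Immediate early genes are transcribed within minutes of a stimulus without new protein synthesis. In neurons, calcium entry and MAP kinase signaling act on the transcription factors CREB, SRF and MEF2, already bound at their promoters, and the resulting mRNAs are short-lived, so their levels depend on what the animal did shortly before tissue was taken. Most of them encode transcription factors that switch on later genes, whereas Arc acts directly at synapses. Fos, Arc and Egr1 are widely used as markers of recently active neurons in cortex and hippocampus.

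The sequence before the start site of these genes is shown because neuronal activity acts on them in part through their promoters. RefSeq promoter windows (GRCm38.p6, 250 bases before to 50 bases after the start) were matched for 7 of the 10 genes (all but Egr1, Egr3 and Arc). Searched on both strands, the core of the cAMP response element (CRE), TGACG, which reads CGTCA on the other strand, was in at least 1 window of 7 of 7 genes, against 23% of 27025 genes (in 9 of their 11 windows, against 20.8% of all 32851 windows). The windows are not independent, since those of Egr2 starting at 67537619, 67537620 and 67537680 overlap and hold the same 2 core sites. The background was not matched for GC content. The full site TGACGTCA, which contains the core, was in 0 of the 7 genes (2.03% of genes). A CArG box, the binding site of SRF, was in the windows of 1 gene, Egr2 (1.81% of genes), TATAAA in 2 genes, Fos and Junb (15.7%), the AP-1 site TGANTCA in 0 (8.97%), and the EGR sites GCGTGGGCG or GCGGGGGCG in 2, Fosb and Nr4a1 (3.93%). The 5 genes with more than 1 core site in a window are printed below, 250 bases up to the start, 5′ to 3′ on the strand of the gene, with core sites, CArG box and TATAAA in capitals.
Fos (plus strand, chr12:85473640-85473889): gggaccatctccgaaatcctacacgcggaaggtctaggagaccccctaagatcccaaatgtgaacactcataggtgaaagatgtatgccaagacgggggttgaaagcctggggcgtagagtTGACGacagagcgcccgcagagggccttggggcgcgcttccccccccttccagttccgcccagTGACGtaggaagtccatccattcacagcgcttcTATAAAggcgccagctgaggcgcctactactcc
Egr2 (plus strand, chr10:67537619-67537868): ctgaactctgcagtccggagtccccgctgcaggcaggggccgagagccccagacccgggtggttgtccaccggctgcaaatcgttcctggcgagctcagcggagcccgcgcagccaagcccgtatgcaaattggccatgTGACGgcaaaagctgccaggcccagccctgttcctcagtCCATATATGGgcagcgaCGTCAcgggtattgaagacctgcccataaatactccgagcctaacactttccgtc
Egr4 (minus strand, chr6:85513590-85513839): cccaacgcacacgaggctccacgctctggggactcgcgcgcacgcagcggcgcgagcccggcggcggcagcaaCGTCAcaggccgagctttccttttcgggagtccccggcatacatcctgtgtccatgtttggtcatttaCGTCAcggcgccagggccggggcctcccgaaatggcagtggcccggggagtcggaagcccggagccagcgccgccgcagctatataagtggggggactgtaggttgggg
Npas4 (minus strand, chr19:4989972-4990221): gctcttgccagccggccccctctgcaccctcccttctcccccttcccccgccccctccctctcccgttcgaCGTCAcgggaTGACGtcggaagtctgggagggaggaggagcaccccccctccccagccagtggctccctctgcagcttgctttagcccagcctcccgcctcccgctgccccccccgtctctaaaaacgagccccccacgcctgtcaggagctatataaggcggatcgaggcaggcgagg
Nr4a1 (plus strand, chr15:101266596-101266845): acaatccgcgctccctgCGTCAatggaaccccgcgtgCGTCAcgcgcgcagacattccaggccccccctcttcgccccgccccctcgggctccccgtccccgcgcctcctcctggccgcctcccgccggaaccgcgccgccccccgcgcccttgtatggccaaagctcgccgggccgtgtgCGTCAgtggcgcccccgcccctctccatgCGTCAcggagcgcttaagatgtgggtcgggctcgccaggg
Counted with the last base before the start as position -1, the core sites of Fos began at -129 and -66 and its TATAAA at -33. In Egr2 the CArG box at -72 lay between core sites at -111 and -55, in the third of 5 annotated start windows. Egr4 had core sites at -177 and -109, Npas4 at -179 and -169, and Nr4a1 at -233, -213, -69 and -40. Fosb and Junb had 1 core site each, at -60 and -106. The TATAAA match of Junb began at position 1, at the start itself and not upstream of it. These matches describe the letters in the windows and are not evidence of binding.

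Libraries held 14917174 to 47613792 counts and differed in ways that moved with treatment. Mitochondrial genes took 14.7% ± 3.69 of counts in PBS-treated mice (SD, n = 12) and 9.54% ± 1.91 in HsTX1[R14A]-treated mice (SD, n = 9). The length slope of a library, the slope of its centered log2 expression on log2 transcript length, was -0.076 ± 0.161 and 0.102 ± 0.119. The library names in the deposited table follow 2 forms, whose meaning is not given, with 10 PBS and 5 HsTX1[R14A] mice in the more common form and 2 PBS and 4 HsTX1[R14A] mice in the other. PBS mice 103 and 90 had the lowest length slopes (-0.384 and -0.337) and HsTX1[R14A] mice 98 and 81 the highest (0.234 and 0.200). Neuronal markers were abundant in each brain (summed Rbfox3, Snap25, Syt1 and Tubb3 from 3095 to 5878 CPM), but the cerebellar markers Gabra6, Pcp2, Cbln1 and Cbln3 summed to 6.49 to 62.6 CPM in PBS mice and 8.39 to 48.3 CPM in 8 of the 9 HsTX1[R14A] mice, low for a sample labeled whole brain. HsTX1[R14A] mouse 74 stood apart with 356 CPM. CPM here are counts scaled to a common library total with TMM factors (trimmed mean of M values). Kcna3, which encodes Kv1.3, had 4.10 ± 0.813 CPM in PBS-treated and 5.71 ± 1.51 CPM in HsTX1[R14A]-treated mice (log2 fold change 0.53, SE 0.14, adjusted p = 0.0180, quasi-likelihood test of edgeR, adjusted by Benjamini-Hochberg).

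Per kilobase of the longest transcript, Egr1 and Arc were the most abundant of the 10 genes in PBS-treated brains, with medians of 31.6 and 31.5 CPM per kb, and these neighbors did not separate, since Egr1 was above Arc in 5 of 12 mice. Junb (20.03 CPM per kb) and Nr4a1 (17.4) followed, and Junb was above Nr4a1 in 7 of 12 mice. Egr3 (7.96) and Fos (7.53) came next and did not separate either, with Egr3 above Fos in 4 of 12 mice. Egr4 (5.52), Npas4 (3.89), Fosb (2.24) and Egr2 (1.58) were lowest, and the first 3 of these were each above the next in 9 to 11 of 12 mice. The mean ± SD over the 12 mice ran from 40.5 ± 26.5 CPM per kb in Arc to 1.74 ± 0.863 in Egr2.

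All 10 immediate early genes had higher mean levels in HsTX1[R14A]-treated brains, by 1.44-fold (Egr3) to 1.98-fold (Egr4), and 6 of the 10 passed the test. Fos, Fosb, Junb, Egr1, Egr2 and Egr4 rose, Npas4, Nr4a1, Arc and Egr3 did not pass, and none fell (quasi-likelihood test of edgeR for treatment, corrected for sex, Benjamini-Hochberg adjusted over 16303 genes, FDR at most 0.05). Of all genes tested, 15.5% were called higher and 31.6% in either direction. The median log2 fold change was 0.78 over the 10 genes and -0.01 over all genes, and a log2 fold change of at least 0.5, which all 10 reached, was found in 7.97% of genes. The groups overlapped in each of the 10 genes, and 0.0184% of all genes had groups that did not overlap. The count of 6 fell to 3 without HsTX1[R14A] mouse 98, and to 4 without PBS mouse 90 or HsTX1[R14A] mouse 81. Calls over all genes also fell without PBS mouse 90, from 5144 to 2289. Without mice 98 and 81 together (chosen after seeing the data), 0 of the 10 and 0 of all 16305 genes were called. In that fit 5 of the 10 genes and 35.7% of all genes had an unadjusted p under 0.05 (46.4% of all genes over the 21 mice). All 10 log2 fold changes were still positive there, with a median of 0.55. In bulk tissue, fewer cells of a type and less RNA per cell cannot be told apart.

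Among the AP-1 genes, whose proteins pair as FOS-JUN dimers on TGANTCA sites, Fos had the smallest p-value of the 10. Fos (ENSMUSG00000021250, GRCm38 chromosome 12, 85473890 to 85477273) ranged from 8.89 to 28.7 CPM in the 12 PBS mice, with a median of 15.9, and from 14.6 to 45.6 CPM in the 9 HsTX1[R14A] mice, with a median of 31.2. By sex, the 3 HsTX1[R14A] females had 45.6, 31.2 and 24.4 CPM, against a median of 22.3 in the PBS females, and the medians of the males were 31.1 and 15.3. The PBS median of Fos was exceeded by 8 of the 9 treated mice, and in 19.4% of all genes at least 8 of them exceeded it. Of the 9, 5 were above the highest PBS mouse, among them the 4 whose libraries had the less common name form (37.2 to 45.6 CPM). Means of 18.03 ± 6.96 and 31.7 ± 10.6 CPM gave a log2 fold change of 0.88 (SE 0.22, adjusted p = 0.0170, quasi-likelihood test of edgeR, Benjamini-Hochberg adjusted).

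Fosb encodes another FOS family protein, whose truncated splice form accumulates with repeated stimulation, and gene-level counts do not separate its forms. On chromosome 7, 19302696 to 19310051, it ranged from 3.19 to 17.1 CPM in PBS mice (median 8.45) and from 9.71 to 28.4 CPM in HsTX1[R14A] mice (median 13.5). All 9 HsTX1[R14A] mice exceeded the PBS median, though the highest PBS male (mouse 83, 17.1 CPM) was above 6 of them. The log2 fold change was 0.79 (SE 0.26, adjusted p = 0.0286, edgeR), and Fosb lost the threshold without PBS mouse 90 (0.0554) or HsTX1[R14A] mice 98 (0.0722) or 81 (0.0615).

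Junb encodes a JUN family partner that restrains c-Jun. Its levels ran from 23.3 to 51.6 CPM in PBS mice (median 36.2) and from 32.1 to 73.8 CPM in HsTX1[R14A] mice (median 51.0). The 4 HsTX1[R14A] mice above every PBS mouse, with 60.6 to 73.8 CPM, were the 4 whose libraries had the less common name form. The log2 fold change was 0.54 (SE 0.16, adjusted p = 0.0238, edgeR), and without HsTX1[R14A] mouse 98 the adjusted p was 0.0539. Junb (chromosome 8, 84974484 to 84978718) overlaps Prdx2 on the opposite strand, and whether the counting used strand is not stated, so its counts are uncertain.

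The EGR genes encode zinc finger transcription factors that bind GC-rich sites, and 3 of the 4 rose. Egr1, also known as Zif268 and linked to the stabilization of long-term potentiation, had 40.9 to 251 CPM in PBS mice (median 142) and 124 to 508 CPM in HsTX1[R14A] mice (median 229). The highest value, 508 CPM in HsTX1[R14A] male 81, stood well above the other 5 males of its group, and 3 of 9 HsTX1[R14A] mice were above all PBS mice. The log2 fold change was 0.91 (SE 0.29, adjusted p = 0.0257, quasi-likelihood test of edgeR, Benjamini-Hochberg adjusted), with adjusted p-values of 0.0534 without PBS mouse 90, 0.0570 without HsTX1[R14A] mouse 98 and 0.0535 without mouse 81.

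Egr2, or Krox20, which is also the factor that drives myelination by Schwann cells, had the lowest level of the 10. It ranged from 1.21 to 9.85 CPM (median 4.68) in PBS mice and from 3.80 to 15.4 CPM (median 9.11) in HsTX1[R14A] mice, with 8 of 9 above the PBS median. Its log2 fold change was 0.98 (SE 0.28, adjusted p = 0.0204, edgeR). Egr4 (chromosome 6, 85511121 to 85513589), also known as NGFI-C, ranged from 3.55 to 25.7 CPM (median 11.9) and from 11.4 to 39.9 CPM (median 24.03). It had the largest log2 fold change of the 10, 0.99 (SE 0.27, adjusted p = 0.0186, edgeR), and 6 of 12 PBS mice lay below the lowest HsTX1[R14A] mouse. Fos, Egr2 and Egr4 passed the threshold with each of the 21 mice left out in turn. Egr2 lost it without a sex term (adjusted p = 0.0534, edgeR) and with sample quality weights (0.0703, limma/voom). Over the 18 fits that were not of this kind, the main one included, Egr2 was called in 8. Egr1 was called in 9, Fosb and Junb in 10 each, and Fos and Egr4 in 12 each.

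Egr3 (chromosome 14, 70077203 to 70082614), a gene also needed for muscle spindles, showed the smallest difference. PBS mice had 8.59 to 52.0 CPM (median 31.4) and HsTX1[R14A] mice 25.7 to 81.1 CPM (median 37.7), and 7 of 9 HsTX1[R14A] mice exceeded the PBS median. The log2 fold change of 0.52 had a 95% interval of -0.02 to 1.07 and an adjusted p of 0.122 (edgeR), so a change of Egr3 was not detectable at this spread.

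Of the remaining genes, none passed the threshold, and the spread between mice was widest in Arc. Arc (chromosome 15, 74669083 to 74672570) encodes a synaptic protein that promotes the endocytosis of AMPA receptors, and its mRNA travels to active dendrites. It ranged from 28.7 to 260 CPM in PBS mice (median 96.3) and from 75.3 to 298 CPM in HsTX1[R14A] mice (median 161). The HsTX1[R14A] mice split into 4 with 269 to 298 CPM, which carry the less common library name form, and 5 with 75.3 to 161 CPM. The log2 fold change was 0.72, with a 95% interval of -0.06 to 1.49 (SE 0.37, adjusted p = 0.133, edgeR).

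Npas4 (chromosome 19, 4984355 to 4990316), a transcription factor induced by calcium entry and little else, ranged from 7.24 to 27.8 CPM in PBS mice (median 14.8) and from 14.7 to 51.4 CPM in HsTX1[R14A] mice (median 18.99). HsTX1[R14A] mice 98 and 81 were above all PBS mice, with 51.4 and 36.5 CPM. Its log2 fold change was 0.62 (SE 0.24, adjusted p = 0.0502, edgeR), at the threshold. Nr4a1 (chromosome 15, 101254269 to 101274795), an orphan nuclear receptor also known as Nur77, ranged from 14.6 to 92.3 CPM (median 44.4) and from 34.1 to 115 CPM (median 76.7), with a log2 fold change of 0.77 (SE 0.30, adjusted p = 0.0535, edgeR). DESeq2 called both (adjusted p = 0.0296 for Npas4 and 0.0265 for Nr4a1), and limma/voom called Nr4a1 only (0.0474, against 0.0613 for Npas4). Of all genes, DESeq2 called 6145 and limma/voom 5201, against 5144 in edgeR. With 1 mouse left out, the log2 fold change of Npas4 ran from 0.37 to 0.78, with adjusted p-values of 0.0245 to 0.217 (edgeR).

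**Figure D1:**
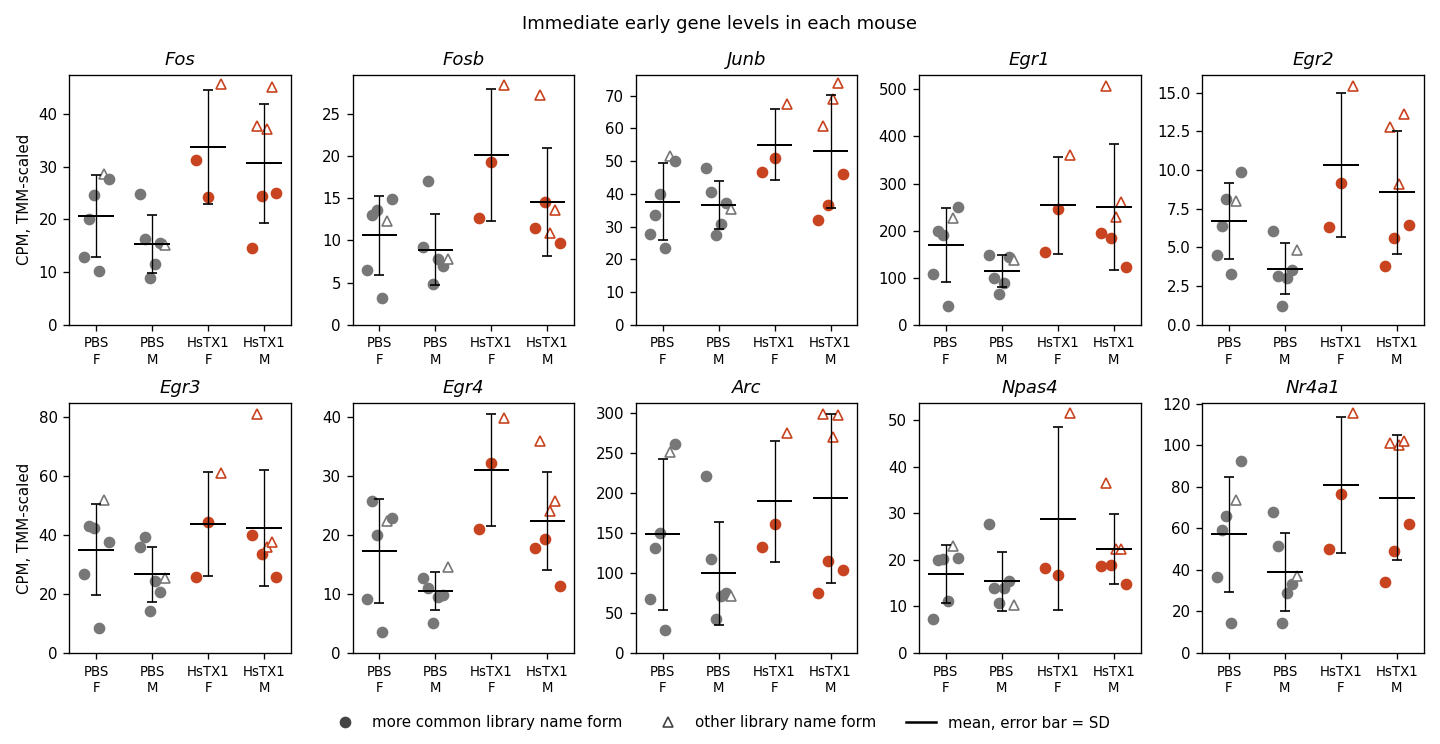
Level of each immediate early gene in each mouse, in TMM-scaled CPM on a linear axis from 0, by treatment and sex (F, female; M, male). Points are mice, open triangles mark the 6 libraries of the less common name form, and lines with bars are mean and SD. Fos runs from 8.89 to 28.7 CPM in PBS mice and from 14.6 to 45.6 CPM in HsTX1[R14A] mice. In Fos, Junb, Arc and Nr4a1 the 4 HsTX1[R14A] triangles lie above all PBS points.

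Values were not spread evenly over the libraries. PBS mouse 103 was the lowest of the 21 in 7 of the 10 genes and PBS mouse 90 in 2, whereas HsTX1[R14A] mouse 98 was highest in 6, mouse 81 in 3 and mouse 92 in 1. Mice 103 and 90 also had the lowest length slopes, and mice 98 and 81 the highest. HsTX1[R14A] mouse 74, whose cerebellar markers stood apart, was the lowest treated mouse in Fos, Junb, Egr2, Arc and Nr4a1, and without it 7 of the 10 genes were called, with Nr4a1 added (adjusted p = 0.0461, edgeR). Mouse 103 had 40.9 CPM of Egr1 and 28.7 CPM of Arc, and mouse 98 had 360 and 274 CPM. After removal of sex and treatment, the SD of log2 CPM between mice was 0.40 (Junb) to 0.92 (Arc), against a median of 0.24 over 13302 genes, and Arc varied more than 99.3% of them.

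Within the library name forms, the difference was positive in each of the 10 genes but of different size. Among the 15 mice of the more common form, 0 of the 10 genes were called, 1 had an unadjusted p under 0.05 against 35.6% of all genes, and the median log2 fold change was 0.38 (edgeR, 0 of all genes called). Among the 6 mice of the other form, 0 were called and 9 had an unadjusted p under 0.05 against 3.29% of all genes, with a median of 1.11 (edgeR, 0 of all genes called). Arc had 116 ± 76.3 CPM in PBS and 117 ± 32.0 CPM in HsTX1[R14A] mice of the more common form. In the other form its values were 70.8 and 251 CPM in the 2 PBS mice and 285 ± 15.1 CPM in the 4 HsTX1[R14A] mice. For Fos the corresponding means were 17.3 ± 6.72 and 23.9 ± 5.97 CPM in the more common form, and 15.1 and 28.7 CPM against 41.5 ± 4.59 CPM in the other. Tested in 1 model, no difference in treatment effect between forms passed (0 of 10 and 0 of 16303 called, lowest unadjusted p = 0.0734 for Npas4, edgeR), with differences from 0.24 (Egr4) to 1.04 (Arc) on the log2 scale and standard errors of 0.31 to 0.77. With the form as a covariate, Fos (adjusted p = 0.0457) and Egr4 (0.0484) were called (edgeR) and the median log2 fold change was 0.57. In the same fit 1999 of all 16303 genes were called.

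**Figure D2:**
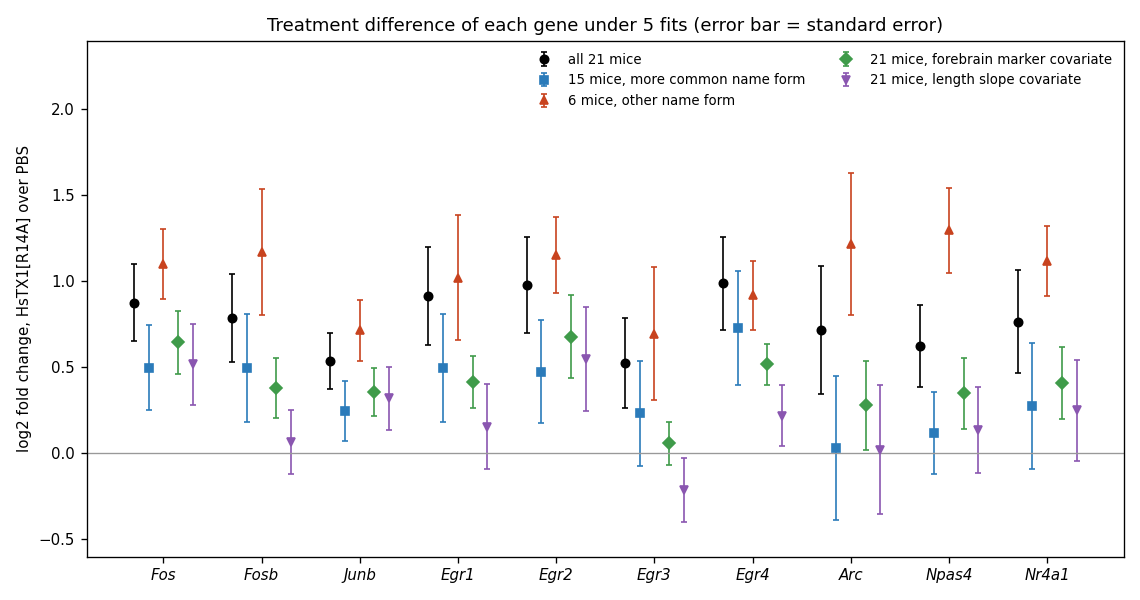
Log2 fold change between HsTX1[R14A] and PBS mice (positive: higher with HsTX1[R14A]), with its standard error, for each gene in 5 edgeR fits: all 21 mice, the 15 and the 6 mice of each library name form, and all mice with the forebrain marker sum or the length slope as covariate. In the 15 mice Arc lies at 0.03 and in the 6 mice at 1.22, and with the length slope as covariate Egr3 lies below 0, at -0.21.

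The summed level of forebrain excitatory neuron markers, most of it Camk2a and Slc17a7, varied with the same genes. The summed level of Slc17a7, Camk2a, Neurod6 and Neurod2 ranged from 810.3 to 3559 CPM in PBS mice (median 2606) and from 2168 to 4464 CPM in HsTX1[R14A] mice (median 3027), with mouse 103 lowest and mouse 81 highest. None of these 4 genes was called, and their median log2 fold change was 0.19, with Slc17a7, a vesicular glutamate transporter, at 0.48 (SE 0.20, adjusted p = 0.0674, edgeR). Camk2a, a calcium-dependent kinase, was at 0.35, and the transcription factors Neurod2 and Neurod6 were at 0.03 and -0.33. Across the 21 mice, with sex and treatment removed, the marker sum correlated with Egr4 (r = 0.94), Egr3 (0.92) and Egr1 (0.89) most closely and with Fos (0.65), Egr2 (0.63), Junb (0.62) and Npas4 (0.61) least. With the marker sum as covariate, chosen after seeing the data, Fos (adjusted p = 0.0436) and Egr4 (0.0310) passed (edgeR), and Egr3 had a log2 fold change of 0.06. In the same fit 1054 of all 16303 genes passed.

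**Figure D3:**
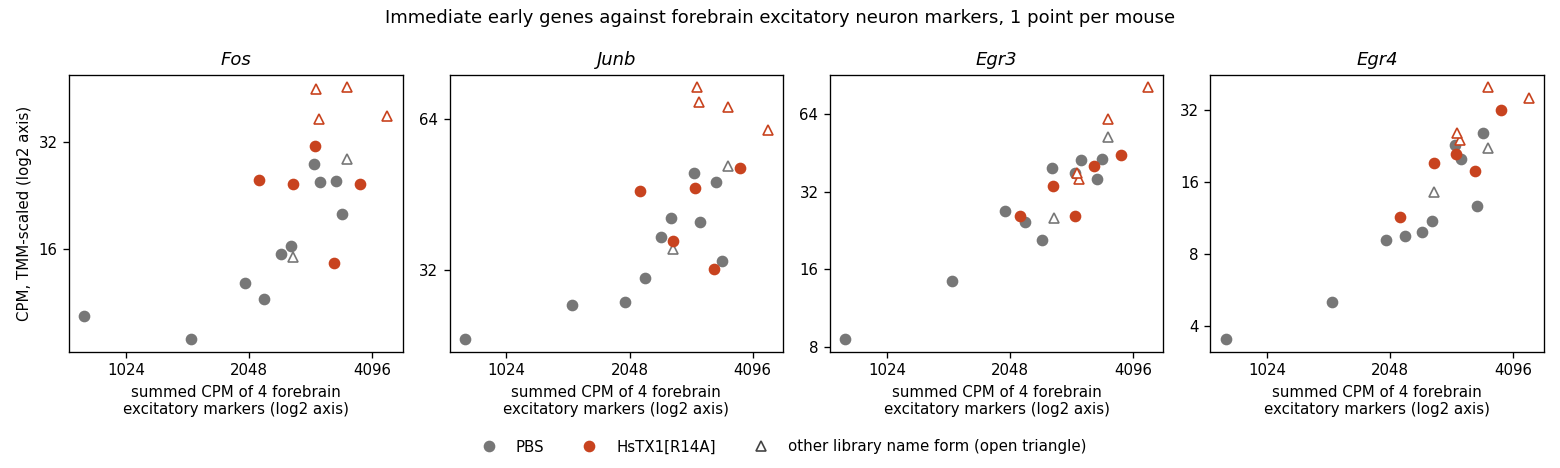
CPM of Fos, Junb, Egr3 and Egr4 against the summed CPM of 4 forebrain excitatory neuron markers, 1 point per mouse, both axes on a log2 scale, PBS in gray and HsTX1[R14A] in red. The marker sum runs from 810.3 to 4464 CPM, and Egr3 and Egr4 follow it more closely (r = 0.92 and 0.94 with sex and treatment removed) than Fos and Junb (0.65 and 0.62).

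The length slope and the mitochondrial share moved with the genes as well. Correlations with the length slope ran from 0.43 (Junb) to 0.89 (Egr4), and with the mitochondrial share from -0.67 (Egr4) to -0.33 (Junb), over the same 21 libraries and as a description. With the length slope as covariate 0 genes were called (1 with an unadjusted p under 0.05, against 11.4% of all genes), 9 of 10 log2 fold changes were positive with a median of 0.19, and the largest were in Egr2 (0.55, SE 0.30) and Fos (0.52, SE 0.23). With the mitochondrial share as covariate 0 were called, 0 had an unadjusted p under 0.05 against 2.96% of all genes, and the median was 0.32 (edgeR for both). Removing the dependence on transcript length and GC content from each library left 5 called, Fos, Fosb, Junb, Egr2 and Egr4. In the same fit 2488 of all 16224 genes were called. The part of these library measures in the difference was not tested.

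Levels were higher in females in each of the 10 genes, by 0.05 (Junb) to 0.64 (Egr2) on the log2 scale with a median of 0.34, but no gene was called for sex (0.0552% of all genes were called, edgeR). Egr4 (0.63, unadjusted p = 0.0294) and Egr2 (0.64, unadjusted p = 0.0311) were the 2 genes with an unadjusted p under 0.05, against 10.8% of all genes, and limma/voom and DESeq2 also called 0. In PBS mice Egr4 had 17.3 ± 8.82 CPM in females and 10.5 ± 3.25 CPM in males (SD, n = 6 each). With the length slope in the model, 4 of the 10 differences were positive and their median was -0.04. No difference in treatment effect between the sexes passed the test (0 of 10 called and 0 with an unadjusted p under 0.05, against 0% and 1.66% of all genes, edgeR, and 0 called by limma/voom and DESeq2). The female log2 fold change was below the male in 7 genes, for example 0.61 and 1.23 in Egr2 and 0.35 and 0.95 in Arc, and at or above it in Fosb (0.91 and 0.71), Npas4 (0.76 and 0.53) and Junb (0.54 in both). The differences between sexes had standard errors of 0.34 (Junb) to 0.76 (Arc).

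The 10 genes varied together from mouse to mouse beyond treatment and sex, and many other genes varied with them. Sik1 had a mean correlation of 0.69 with the 10 and ranked only 639 among 13292 other genes by this measure. Npas4, the lowest of the 10, had a mean of 0.68 with the rest of the group. Over the 45 pairs, the correlation of log2 CPM with both removed ranged from 0.61 (Fosb with Egr2) to 0.96 (Arc with Nr4a1), with a median of 0.79. With Fos, Pearson's r was 0.94 for Arc, 0.93 for Junb, 0.92 for Nr4a1 and 0.90 for Egr2, and Spearman's coefficient 0.95, 0.94, 0.94 and 0.91 (adjusted p = 2.25e-05 for each, permutation test, two-sided, 100000 resamples, Benjamini-Hochberg over 9 pairs, where the raw p of 1e-05 is the smallest it can give). It was 0.75 for Egr1 (Spearman 0.75), 0.74 for Egr4 (Spearman 0.76), 0.74 for Npas4 (Spearman 0.79), 0.66 for Egr3 (Spearman 0.61) and 0.64 for Fosb (Spearman 0.62), with adjusted permutation p-values of at most 0.00142 for r and 0.004 for Spearman's coefficient. The share of all genes that would pass the same test with Fos was not computed. The length slope was not removed either, and it went with 18.5% (Junb) to 78.5% (Egr4) of the remaining variance. Without the 2 mice farthest from the median of Fos (HsTX1[R14A] mouse 74 and PBS mouse 103), r was 0.55 (Fosb) to 0.93 (Arc), and within the 15 mice of the more common name form 0.64 to 0.93. Within the 6 mice of the other form, Junb (0.94), Arc (0.92) and Nr4a1 (0.92) still followed Fos, whereas Egr1 (0.17), Fosb (0.08) and Egr4 (-0.14) did not, and Nr4a1 and Junb had adjusted p-values of at most 0.05 (0.0375 and 0.05, exact permutation test for Pearson's r). By Spearman's coefficient none of the 9 genes passed in these 6 mice, with adjusted p-values of 0.15 for Nr4a1 and 0.175 for Junb and Arc as the lowest (exact permutation test). Close pairs outside the genes nearest to Fos were Egr1 with Egr4 (r = 0.94 over 21 mice) and Fosb with Egr3 (0.92). The genes did not form separate sets, since Egr4 and Nr4a1 correlated at 0.85 and Egr1 and Arc at 0.84, above Fosb with Egr1 (0.81) and Junb with Egr2 (0.83).

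**Figure D4:**
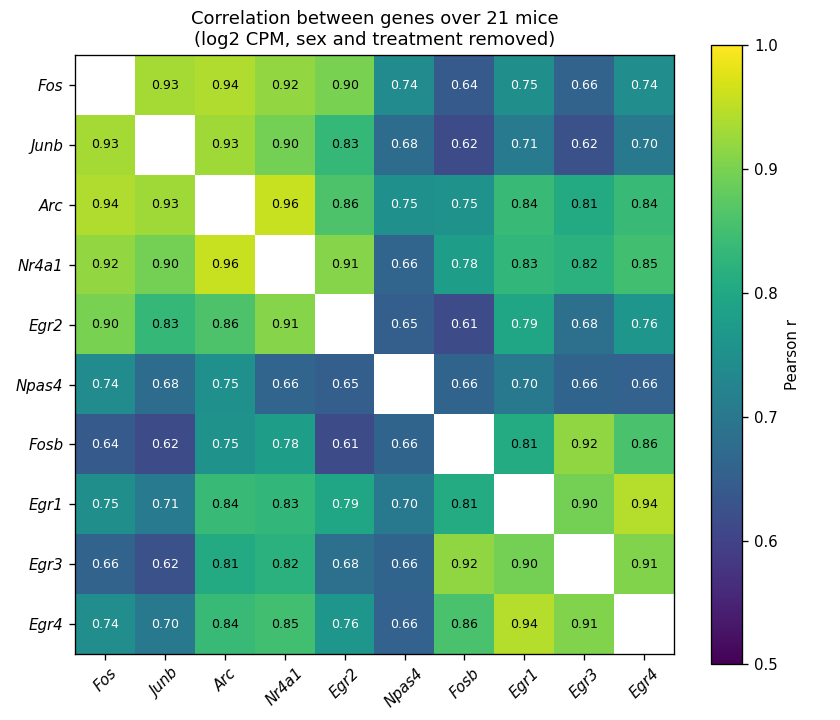
Pearson correlation between each pair of genes over 21 mice, computed on log2 CPM with sex and treatment removed and colored from 0.5 to 1. Fos, Junb, Arc, Nr4a1 and Egr2 correlate at 0.83 to 0.96, Egr1, Egr3, Egr4 and Fosb at 0.81 to 0.94, pairs across these genes at 0.61 to 0.85, and Npas4 reaches at most 0.75 with any other gene.

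Of 13292 other genes, the 5 with the highest mean correlation with the 10 over 21 mice were Trib1 (0.84), a pseudokinase that binds the ubiquitin ligase COP1, Dnajb5 (0.83), a heat shock protein of the HSP40 family, Gm37530 (0.81), Kalrn (0.81), a guanine nucleotide exchange factor of dendritic spines, and Cecr6 (0.81), against a median of 0.05. Dnajb5 (log2 fold change 0.48, adjusted p = 0.0287) and Cecr6 (0.55, adjusted p = 0.0266) rose with treatment, and Trib1 (0.43, adjusted p = 0.0934), Kalrn (0.41, adjusted p = 0.0966) and Gm37530 (0.22, adjusted p = 0.347) did not pass (edgeR). Of the forebrain excitatory neuron markers, Slc17a7 (rank 22, mean 0.78) and Camk2a (rank 66, mean 0.76) lay high by the same measure, whereas Neurod2 ranked 4368 (0.41) and Neurod6 ranked 5411 (0.26).

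Of 19 other transcription factors of the early response, 7 rose and 1 fell, with a median log2 fold change of 0.34, and Fosl1 is not in the table. Fosl2, an AP-1 gene that is slower to rise than Fos, had 22.7 ± 8.80 CPM in PBS and 40.7 ± 12.3 CPM in HsTX1[R14A] mice (log2 fold change 0.90, SE 0.20, adjusted p = 0.0151, quasi-likelihood test of edgeR, Benjamini-Hochberg adjusted). Per1, a clock gene that CREB induces, rose by 0.85 (adjusted p = 0.0196, edgeR), while Klf6, a factor of the Krüppel-like family, fell by 0.29 (adjusted p = 0.0226, edgeR). The others that rose, named here after their values were seen, were Btg2, Nr4a3, Klf2, Srf and Jun, with log2 fold changes of 0.33 (Jun) to 0.59 (Nr4a3).

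Of 16 feedback inhibitors, 4 rose and 1 fell, with a median of 0.25. Dusp4, a phosphatase that inactivates MAP kinases, rose by 0.73 (adjusted p = 0.0151), Spry4, an inhibitor of receptor tyrosine kinase signaling, by 0.49 (adjusted p = 0.0163), and Sik1, a kinase that keeps the CREB coactivators out of the nucleus, by 0.74 (adjusted p = 0.0206, edgeR for each). The corepressors of EGR proteins, also named after their values were seen, went opposite ways, with Nab2 higher by 0.45 (adjusted p = 0.0226) and Nab1 lower (log2 fold change -0.34, adjusted p = 0.0261, edgeR).

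Of 19 effectors that neurons induce downstream of activity, 3 rose and 1 fell, and their median log2 fold change was 0.03. Vgf, a neuropeptide precursor, had 117 ± 64.0 CPM in PBS and 213 ± 77.8 CPM in HsTX1[R14A] mice (log2 fold change 0.98, adjusted p = 0.0210, edgeR), Pcsk1, a prohormone convertase, rose by 0.47 (adjusted p = 0.0198) and Rheb, the GTPase that activates mTORC1, fell by 0.33 (adjusted p = 0.0394, edgeR for both). Lingo3 also rose (0.49, adjusted p = 0.0455). Well-known activity targets, chosen after their values were seen, had log2 fold changes of -0.11 (Bdnf, SE 0.13), -0.10 (Homer1, SE 0.16), 0.12 (Nptx2, SE 0.21) and 0.04 (Ptgs2, SE 0.17), none called. Gene-level counts of Homer1 and Bdnf sum activity-induced and constitutive transcripts.

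Of 24 upstream regulators, 9 rose and 1 fell, with a median of 0.22. Hdac4, a class IIa histone deacetylase that represses MEF2 and leaves the nucleus upon activity, rose by 0.52 (adjusted p = 0.0153), Ep300, a histone acetyltransferase recruited by CREB, by 0.65 (adjusted p = 0.0186), and Mkl2, an actin-regulated coactivator of SRF, by 0.67 (adjusted p = 0.0212, edgeR for each). Creb1 itself had a log2 fold change of -0.01 (SE 0.05), and Crem, whose gene also makes the repressor ICER, fell by 0.35 (adjusted p = 0.0457, edgeR). The called shares of these 4 lists are read against 15.5% of all genes called higher and 16.1% lower.

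**Figure D5:**
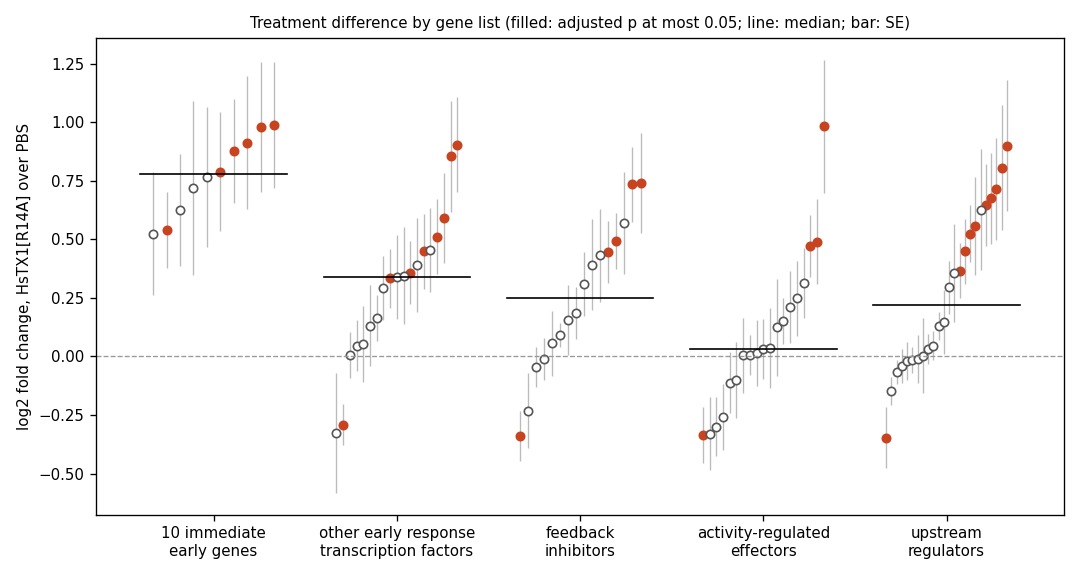
Log2 fold change between HsTX1[R14A] and PBS mice with standard error for each gene of 5 lists, ordered within a list; filled points have an adjusted p of at most 0.05 (edgeR) and black lines mark list medians. The medians are 0.78 for the 10 immediate early genes, 0.34 for other early transcription factors, 0.25 for feedback inhibitors, 0.03 for effectors and 0.22 for upstream regulators.

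Markers of other cell types were compared in the same fit. Among oligodendrocyte markers 3 of 4 fell, by 0.40 (Mbp) to 0.67 (Mobp) on the log2 scale, with sums of 3910 to 6265 CPM in PBS and 3055 to 4425 CPM in HsTX1[R14A] mice. Gfap and Aqp4 fell among 4 astrocyte markers, P2ry12 among 5 of microglia, Flt1 rose among 5 of endothelium and Syt1 among 4 of neurons (edgeR, adjusted p of at most 0.05 for each). Over all genes, 15.5% were called higher and 16.1% lower. A call of 1 marker among 4 or 5 is therefore not read as a change of its cell type. None of the markers of choroid plexus, erythrocytes, striatum, meninges or cerebellum was called, and no marker was at 0 in all mice. Summed levels in PBS and HsTX1[R14A] mice were 673 to 1312 and 703 to 1041 CPM for astrocytes, 327 to 468 and 275 to 411 CPM for microglia, and 65.7 to 114 and 77.6 to 132 CPM for endothelium. The part of cell composition in the immediate early gene difference was not tested.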

How the data were processed

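Whole-brain RNA of 21 SAMP8 mice was sequenced with 1 library per mouse, as the labels give separate animals. The authors aligned reads to GRCm38 with STAR and quantified genes with Salmon, and the deposited values used here are their estimated counts, not normalized. The labels and the methods name different library kits and spell the peptide differently, and the strand setting of the counting is not given in the sources used here. The authors' CPM columns and the counts of other libraries (53 columns of per-sample values), and their columns of fold changes, p-values and FDR were not used. Estimated counts, 90.5% of them within 0.01 of a whole number, were rounded. Library totals were 14917174 to 47613792 counts, and counting error was not separated from the spread between mice.

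For 16303 of 16318 genes, those that filterByExpr kept, treatment was tested with the quasi-likelihood functions glmQLFit and glmQLFTest of edgeR 4.0.16 in R 4.3.3 after TMM scaling, corrected for sex. Benjamini-Hochberg adjustment ran over all of these genes, with an FDR threshold of 0.05. The standard error is the log2 fold change divided by the square root of F, the 95% interval takes the t quantile at the degrees of freedom of the test, and log2 CPM carries a prior count of 2. Lengths and GC content came from the longest transcript in GENCODE (GRCm38), found for 99.5% of genes. Alternatives were limma 3.58.1 with voom, DESeq2 1.42.0, RLE scaling, other filters, covariates and weights, removal of length and GC trends by loess (span 0.5), the mice of either library name form, and leaving out each mouse. The forebrain marker and mitochondrial covariates and the sets without 2 or 4 libraries were added after seeing the data. In data simulated from these 21 libraries for the treatment comparison, edgeR recovered 178 of 200 genes changed 2-fold, with 13 false calls among 16299 genes. The simulated counts were independent between genes and held no effect of sex, length slope, mitochondrial share or name form. They therefore cannot show how many calls in the real data go with such differences.

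The 10 genes, the gene lists and the tests were chosen with earlier results of these data known. Named genes are the 10, the 5 most correlated others among genes whose mean log2 CPM reached 1, the 3 genes of smallest p in each of 4 pathway lists (none of the listed genes changed over 2-fold), Kcna3 and, where said, genes named after their values were seen. 1 gene of the forebrain marker list is not reported here, and the sum of the list leaves it out. Promoter sequences are from RefSeq (GRCm38.p6).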

Additional observations from a re-analysis of the deposited data

Results flagged for a closer look

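Each gene was screened for 1 mouse standing apart from the rest of its group, by the gap to the nearest mouse as a share of the range (Dixon's 95% critical value). The groups were PBS females, PBS males, HsTX1[R14A] males and all 9 HsTX1[R14A] mice. The 3 HsTX1[R14A] females were not screened as a group of their own. Chance alone marks about 1 in 20 groups of normally distributed values, and 6 of 40 combinations of gene and group were marked. The combinations are not independent, since the genes vary together over the same mice and the HsTX1[R14A] males belong to both treated groups. The count of 6 can therefore not be read against that rate. HsTX1[R14A] male 81 stood above the other 5 HsTX1[R14A] males in Fosb (27.2 CPM, the others at most 14.6), Egr1 (508 CPM, the others at most 260), Egr3 (81.1 CPM, the others at most 40.1) and Npas4 (36.5 CPM, the others at most 22.4). This library also had the highest forebrain marker sum of the 21 mice (4464 CPM). PBS male 83 was high in Fosb (17.1 CPM) and PBS male 82 in Npas4 (27.8 CPM). The part of any library measure in these values was not tested.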

How the results depend on the processing

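The 10 genes kept positive log2 fold changes under each alternative except for Egr3 with the length slope as covariate (-0.21). Of 6 genes called, 2 were called with the library name form or the forebrain marker sum as covariate, and 0 with the length slope or mitochondrial share as covariate, within the 15 or the 6 mice of 1 name form, without HsTX1[R14A] mice 98 and 81, and without mice 103, 90, 98 and 81. With 1 mouse left out the count ran from 3 to 8. Limma/voom, DESeq2, RLE scaling, both other filters, no sex term, quality weights, removed trends and the set without PBS mice 103 and 90 gave 5 to 8.

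Over all genes, 5144 were called, against 2984 without a sex term, 1999 with the name form as covariate, 0 with the length slope, 2488 with length and GC trends removed, 0 in the 15 and 0 in the 6 mice, 1054 with the forebrain marker sum, 0 with the mitochondrial share, 2887 without mice 103 and 90, 0 without mice 98 and 81, and 1 without these 4. With 1 mouse left out the range was 2289 (without PBS mouse 90) to 6614 (without HsTX1[R14A] mouse 93). None of the 10 genes was called for sex or for the interaction under the settings tried for them. Correlations with Fos that lost the threshold in the 6 mice of the other form were 0.082 (Fosb), 0.17 (Egr1), 0.50 (Egr2), 0.26 (Egr3), 0.92 (Arc) and 0.41 (Npas4), and Egr4 turned to -0.14 (exact permutation tests, n = 6). The cause of these changes was not tested, and the smaller sets also hold fewer mice. The paper reports that mice were randomized to peptide or PBS in each cage. The labels do not give the cage, so it could not be included. No paired analysis was possible because each replicate number belongs to a single mouse.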
